A study of Arabidopsis thaliana with 25 samples.

Results

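CCOAMT and ALDH2C4 are a pair of Arabidopsis genes annotated to the phenylpropanoid route to lignin and the hydroxycinnamates. They were taken by name, as every probe set of either gene, and each had 1 probe set, so that 2 of the 13350 genes read by a probe set of 1 gene are described here. The pair was selected on earlier results from these same RMA values, by a rule that named no comparison. Their values are therefore given as a description, without a p-value, in each comparison of the 12 groups.

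Phenylpropanoids start from phenylalanine, which is turned into coumaroyl-CoA and, with further hydroxylation, into caffeoyl-CoA. CCOAMT (locus AT1G67980, chromosome 1) is annotated as a caffeoyl-CoA 3-O-methyltransferase, and an enzyme of that activity methylates caffeoyl-CoA to feruloyl-CoA, a branch point for lignin monomers, ferulate esters and coumarins such as scopoletin. ALDH2C4 (locus AT3G24503, chromosome 3), also known as REDUCED EPIDERMAL FLUORESCENCE1 (REF1), is the aldehyde dehydrogenase that oxidises coniferaldehyde and sinapaldehyde to ferulic and sinapic acid. The second enzyme thus draws the aldehydes away from the lignin monomers and supplies the soluble and wall-bound hydroxycinnamates, and plants that lack it have a dim epidermis under ultraviolet light. MPK6 is a mitogen-activated protein kinase that passes on signals of stress and of pathogen molecules.

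Transcripts were measured on 25 Affymetrix ATH1 arrays of Col-0 seedlings that were 10 days old and had grown under 16 h of light and 8 h of dark. For each of 3 lines the root and the shoot were read in normoxia and in hypoxia. WT is the untransformed Col-0 line, mpk6 carries a T-DNA insertion that knocks out MPK6, and MPK6ox carries MPK6 under the constitutive 35S promoter, with the number of independent transformants not given in the labels. For hypoxia, intact seedlings were held under 99.998% argon, and for normoxia in an open chamber, both for 2 h by the treatment protocol, although the source names of the hypoxic samples give 9 h, and roots and shoots were then separated. Each group had 2 arrays, except for hypoxic MPK6ox roots with 3. The titles number the arrays of a group as biological replicates. They do not say whether these came from separate plantings, so what the spread between them covers is not known. The transcript of MPK6 was not used here to check the labels of the lines.

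The values are RMA values on the log2 scale, and 1 unit is a 2-fold ratio of the deposited values. Values of different probe sets were not set against each other, because each probe set has its own response. Within groups, pairs of arrays correlated at 0.982 or more over the 22746 probe sets tested. All 4 of the measured low-oxygen genes rose under hypoxia in both organs. All 4 measured photosynthesis genes were lower in normoxic roots than in normoxic shoots, and their log2 summed level was 8.82 to 11.09 in normoxic roots, 10.88 to 12.92 in hypoxic roots and 15.33 to 15.59 in shoots. All 4 passed the test as higher in hypoxic than in normoxic roots, whereas the 3 measured root markers (EXPA7, EXPA18 and PYK10) were lower there. None of the 7 passed in a comparison of mpk6 or MPK6ox with WT in either organ (limma). The 13 seed genes listed as markers were not analysed here, because none was named by the probe table, and a marker is called measured only where the table names it. In bulk organs, fewer cells of a type and less RNA per cell cannot be told apart.

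CCOAMT stood highest in MPK6ox. In normoxic roots the CCOAMT values were 7.93 and 8.37 in WT, 7.98 and 8.31 in mpk6, and 10.00 and 9.85 in MPK6ox. In hypoxic roots they were 7.31 and 8.82 in WT, 5.93 and 8.27 in mpk6, and 9.70, 10.41 and 9.63 in MPK6ox. The MPK6ox arrays lay above every WT and mpk6 root array in both treatments, and the WT and mpk6 arrays overlapped. In normoxic shoots CCOAMT read 6.10 and 6.51 in WT, 6.07 and 6.50 in mpk6, and 8.99 and 9.02 in MPK6ox. In hypoxic shoots it read 7.05 and 6.96 in WT, 7.25 and 5.96 in mpk6, and 8.61 and 8.94 in MPK6ox. The lowest MPK6ox shoot array thus lay above every WT and mpk6 shoot array.

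ALDH2C4 also had its highest mean in MPK6ox in each organ and treatment, at smaller differences. In normoxic roots the ALDH2C4 values were 12.78 and 12.31 in WT, 12.57 and 12.28 in mpk6, and 13.26 and 12.71 in MPK6ox. In hypoxic roots they were 12.14 and 12.01 in WT, 12.46 and 12.24 in mpk6, and 12.74, 12.80 and 12.90 in MPK6ox. The MPK6ox and WT arrays overlapped in normoxic roots, where WT replicate 1 lay above MPK6ox replicate 2, and were apart in hypoxic roots. In normoxic shoots ALDH2C4 read 10.79 and 10.70 in WT, 11.01 and 10.78 in mpk6, and 11.71 and 11.69 in MPK6ox. In hypoxic shoots it read 10.53 and 10.64 in WT, 10.60 and 10.48 in mpk6, and 11.35 and 11.64 in MPK6ox. Every MPK6ox shoot array was above every other shoot array, and every root array was above every shoot array whatever the line.

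**Figure D1:**
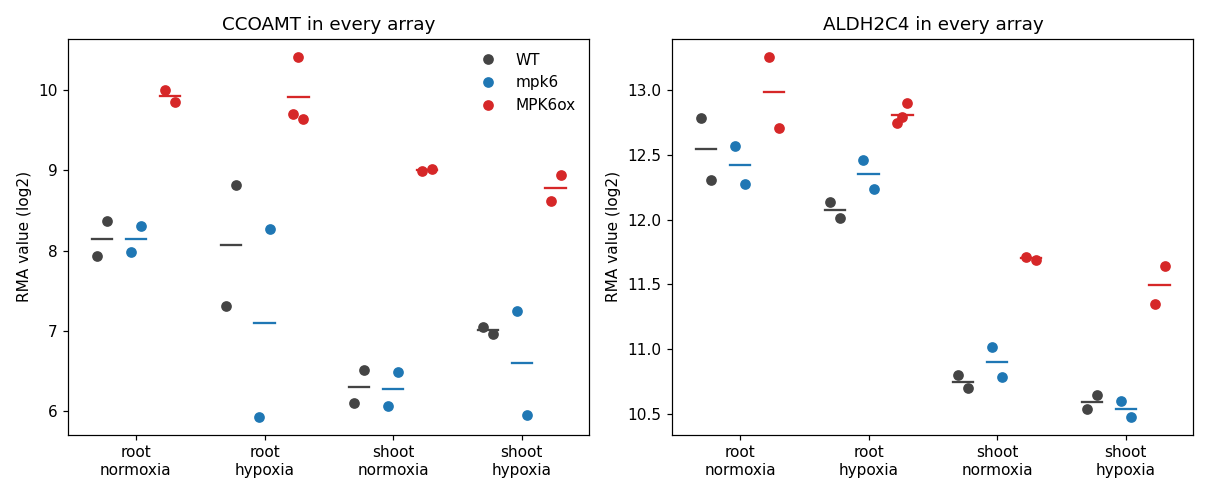
RMA values (log2, vertical axes) of CCOAMT (left) and ALDH2C4 (right) on each of the 25 arrays, by organ and treatment along the horizontal axes and by line in colour, with a bar at each group mean. CCOAMT in MPK6ox lay at 8.61 or more on every array, and the other lines overlapped in each organ and treatment, with a pair of widely spaced arrays in hypoxic WT roots, hypoxic mpk6 roots and hypoxic mpk6 shoots.

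Set in order of their means, the 12 groups formed an uneven ladder for CCOAMT. The upper rungs were MPK6ox, with normoxic roots at 9.93 ± 0.11 (SD, n = 2), hypoxic roots at 9.91 ± 0.43 (SD, n = 3), normoxic shoots at 9.01 ± 0.02 and hypoxic shoots at 8.77 ± 0.23 (SD, n = 2 each). The root groups of MPK6ox overlapped each other, and the steps from hypoxic MPK6ox roots to normoxic and then hypoxic MPK6ox shoots, and from there to normoxic WT roots, were free of overlap. Below these came normoxic WT roots at 8.15 ± 0.31, normoxic mpk6 roots at 8.15 ± 0.23 and hypoxic WT roots at 8.07 ± 1.06 (SD, n = 2 each). Hypoxic mpk6 roots followed at 7.10 ± 1.65, then hypoxic WT shoots at 7.01 ± 0.06, hypoxic mpk6 shoots at 6.60 ± 0.91, normoxic WT shoots at 6.30 ± 0.29 and normoxic mpk6 shoots at 6.28 ± 0.30 (SD, n = 2 each). From normoxic WT roots downwards each group overlapped the next, so that no neighbouring pair among these 8 differed beyond its spread. The MPK6ox shoots, in either treatment, thus held a higher mean than the roots of WT and mpk6. Their arrays were not all apart, since hypoxic WT root replicate 2 (8.82) lay above hypoxic MPK6ox shoot replicate 1 (8.61).

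The order for ALDH2C4 ran by organ first, with MPK6ox at the top of each organ and WT and mpk6 interleaved below it. Its root groups ran from 12.98 ± 0.39 (SD, n = 2) in normoxic MPK6ox and 12.81 ± 0.08 (SD, n = 3) in hypoxic MPK6ox through 12.54 ± 0.34 in normoxic WT, 12.42 ± 0.20 in normoxic mpk6, 12.35 ± 0.16 in hypoxic mpk6 and 12.07 ± 0.09 in hypoxic WT (SD, n = 2 each). Neighbouring root groups overlapped, except for hypoxic mpk6 roots, which lay above hypoxic WT roots. Shoots of MPK6ox came next at 11.70 ± 0.01 in normoxia and 11.50 ± 0.21 in hypoxia, followed by normoxic mpk6 at 10.90 ± 0.17, normoxic WT at 10.75 ± 0.07, hypoxic WT at 10.59 ± 0.08 and hypoxic mpk6 at 10.54 ± 0.09 (SD, n = 2 each). In shoots the steps without overlap were those below each of the MPK6ox groups and the step from normoxic to hypoxic WT.

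Averaged over both treatments, CCOAMT was 1.81 ± 0.39 log2 units higher in MPK6ox than in WT roots (± SE of the fit, 3.52-fold). In shoots it was 2.23 ± 0.41 higher (4.70-fold). Over both organs and treatments the difference was 2.02 ± 0.28 (4.07-fold), which ranked 5 of the 22746 probe sets from the highest. Within a treatment the difference was 1.78 in normoxic roots (3.43-fold), 1.85 in hypoxic roots (3.60-fold), 2.70 in normoxic shoots (6.50-fold) and 1.77 in hypoxic shoots (3.40-fold). The arrays of MPK6ox lay above those of WT in 4 of these 4 settings, as did those of 0.813% of all probe sets. Since the choice of the pair may rest on this contrast, nothing is read from that share or from the rank. Without hypoxic WT root replicate 1 the difference in roots was 1.44, and without replicate 2 it was 2.19.

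ALDH2C4 was 0.59 ± 0.12 log2 units higher in MPK6ox than in WT roots (± SE, 1.51-fold) and 0.93 ± 0.13 higher in shoots (1.91-fold). The difference was 0.44 in normoxic roots, 0.74 in hypoxic roots, 0.95 in normoxic shoots and 0.91 in hypoxic shoots. Over organs and treatments it was 0.76 ± 0.09 (1.69-fold) and ranked 117 of 22746. Arrays were apart in 3 of the 4 settings, which 3.44% of all probe sets reached or passed in the same direction. As for CCOAMT, nothing is read from this rank or share, since the choice of the pair may rest on the contrast. The difference in MPK6ox was smaller in roots than in shoots by 0.34 ± 0.18 for ALDH2C4 and by 0.42 ± 0.57 for CCOAMT (± SE), and neither was tested. The photosynthesis genes overlapped between the lines in shoots, where their summed level was 15.33 to 15.52 in WT and 15.37 to 15.54 in MPK6ox. In normoxic roots their summed level was 8.82 and 9.36 in MPK6ox and 9.78 and 9.98 in WT, lowest on the MPK6ox arrays, and the part of this in the result was not tested.

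In mpk6 the arrays of CCOAMT overlapped those of WT, with wide errors, and those of ALDH2C4 overlapped in 3 of 4 settings. CCOAMT in mpk6 differed from WT by -0.48 ± 0.41 in roots and by -0.21 ± 0.41 in shoots (log2, ± SE), and the arrays overlapped in each of the 4 settings. By setting the difference was -0.003 in normoxic roots, -0.96 in hypoxic roots (1.95-fold lower), -0.02 in normoxic shoots and -0.40 in hypoxic shoots, each with an SE of 0.58. The root value rested on hypoxic mpk6 root replicate 1, the lowest CCOAMT reading of all 25 arrays, and it was 0.10 without that array and -1.07 without replicate 2. The shoot value likewise turned to 0.11 without hypoxic mpk6 shoot replicate 2. ALDH2C4 in mpk6 differed from WT by 0.08 ± 0.13 in roots and 0.05 ± 0.13 in shoots. Its arrays lay above WT in hypoxic roots only (0.28, 1.21-fold), and 51.6% of all probe sets lay above in at least 1 of the 4 settings. The comparisons of mpk6 and of MPK6ox share the WT arrays.

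**Figure D2:**
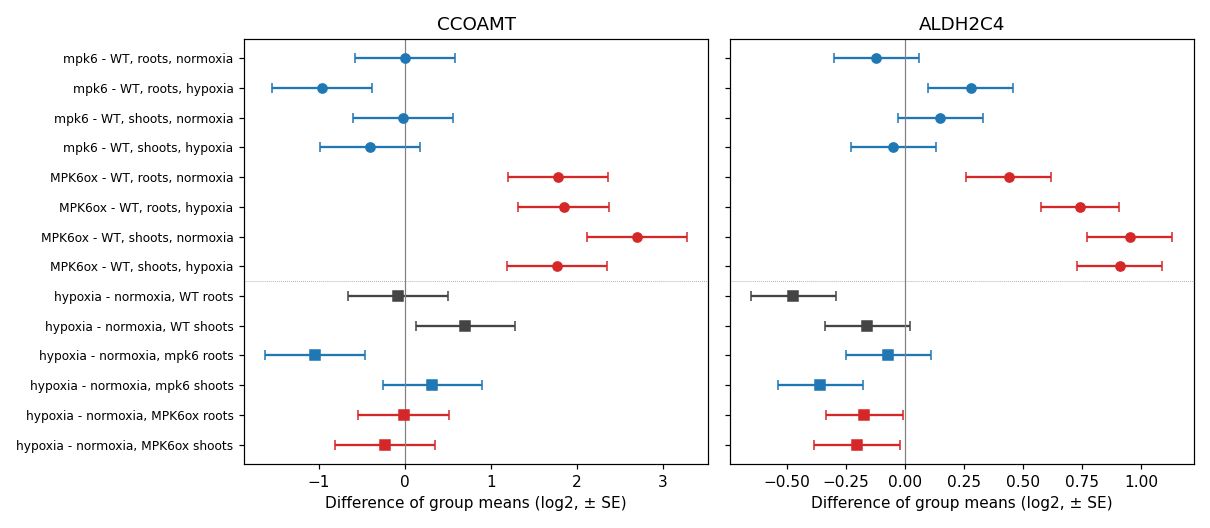
Differences of group means (log2, horizontal axes, with the SE of the fit as bars) for CCOAMT (left) and ALDH2C4 (right), with the 8 differences between a line and WT (circles) above the dotted line and the 6 differences between hypoxia and normoxia (squares) below it. The MPK6ox differences lay between 1.77 and 2.70 for CCOAMT and between 0.44 and 0.95 for ALDH2C4, while for CCOAMT those of mpk6 lay between -0.96 and -0.003 and those of hypoxia between -1.05 and 0.70.

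Between the treatments CCOAMT differed in no common direction. Averaged over the lines, hypoxia minus normoxia was -0.38 ± 0.33 in roots and 0.26 ± 0.34 in shoots (log2, ± SE). Arrays of the treatments overlapped in 4 of the 6 line and organ settings. They lay higher in hypoxia in WT shoots (0.70, 1.63-fold), as 57.8% of all probe sets did in at least 1 setting. They lay lower in MPK6ox shoots (by 0.23, 1.17-fold), as 57.1% of all probe sets did in at least 1 setting. In roots the difference was -0.08 in WT, -1.05 in mpk6 and -0.01 in MPK6ox. The root average was 0.01 without hypoxic mpk6 root replicate 1 and -0.77 without replicate 2.

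ALDH2C4 had a lower mean in hypoxia in each line and organ. Averaged over the lines, its difference was -0.24 ± 0.10 in roots and -0.24 ± 0.10 in shoots (log2, ± SE, 1.18-fold lower in each). The arrays of hypoxia lay below those of normoxia in 4 of 6 settings, namely WT roots (by 0.47, 1.39-fold) and the shoots of WT (by 0.16), mpk6 (by 0.36) and MPK6ox (by 0.20). Of all probe sets, 10.6% lay below in at least 4 of the 6. In the roots of mpk6 (lower by 0.07) and MPK6ox (lower by 0.17) the arrays overlapped. The difference of MPK6ox from WT in the hypoxia response was 0.30 ± 0.24 in roots and -0.04 ± 0.25 in shoots for ALDH2C4, and 0.07 ± 0.79 in roots and -0.93 ± 0.82 in shoots for CCOAMT (log2, ± SE).

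Both genes read higher in roots than in shoots. In normoxia, averaged over the lines, the difference was 1.54 ± 0.34 for CCOAMT (2.92-fold) and 1.54 ± 0.10 for ALDH2C4 (2.90-fold; log2, ± SE). For CCOAMT it was 1.85 in WT, 1.86 in mpk6 and 0.92 in MPK6ox in normoxia, and 1.06, 0.50 and 1.14 in hypoxia. Its arrays were apart in 5 of the 6 settings, which 24.5% of all probe sets reached in the same direction, and overlapped in hypoxic mpk6. For ALDH2C4 it was 1.80, 1.53 and 1.29 in normoxia and 1.48, 1.81 and 1.32 in hypoxia for WT, mpk6 and MPK6ox. Its arrays were apart in 6 of 6 settings, as were those of 19.1% of all probe sets.

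The genes differed in how closely arrays of a group agreed. The pooled SD within groups was 0.65 log2 units for CCOAMT, larger than that of 99.3% of the probe sets, and 0.18 for ALDH2C4, larger than that of 50.5%. CCOAMT spanned 2.33 units between the arrays of hypoxic mpk6 roots, where 17 of the 22746 probe sets spanned as much or more. It spanned 1.51 in hypoxic WT roots and 1.29 in hypoxic mpk6 shoots, where 73 and 136 probe sets did so. The median span over all probe sets was 0.22, 0.15 and 0.17 in these groups. ALDH2C4 spanned at most 0.55, in normoxic MPK6ox roots. In hypoxic roots, the replicate with the higher CCOAMT value was replicate 2 in each line, and it also held the most photosynthesis transcripts. Their summed level was 12.38 against 11.47 in WT, 11.78 against 10.88 in mpk6, and 12.92 against 11.21 and 11.87 in MPK6ox, although CCOAMT read lower in shoots than in roots. In hypoxic mpk6 shoots the summed level was 15.50 and 15.52 across the wide CCOAMT gap. The part of shoot transcripts in the CCOAMT spread was not tested.

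**Figure D3:**
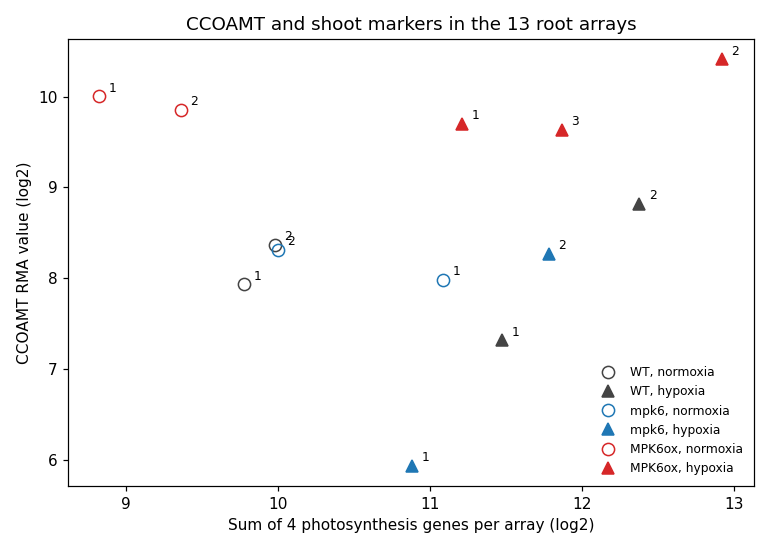
CCOAMT value (log2, vertical axis) against the log2 of the summed level of 4 photosynthesis genes (horizontal axis) on the 13 root arrays, by line in colour, with open circles for normoxia, filled triangles for hypoxia and the replicate number beside each point. Among the hypoxic arrays of each line replicate 2 lay farthest right and highest, and the MPK6ox arrays lay above all other root arrays.

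Across the 12 group means the values of both genes correlated at r = 0.77, at 0.86 after the mean of each organ was taken out, at 0.82 over the 6 root groups and at 0.90 over the 6 shoot groups. These are descriptions of groups that share lines and treatments. The likeness to other genes was measured by the same r among the 4424 probe sets of 1 gene whose group means spanned at least 1 log2 unit. Closest to CCOAMT were AT5G38900 (r = 0.987), AT1G26420 (0.977), AT3G18250 (0.976), AT5G44990 (0.960) and AT2G16900 (0.949). With organ means taken out, the first 4 stayed among the 5 closest and YLS5 (0.967) joined them. The MPK6ox minus WT differences of these 6 genes ran from 0.66 to 1.49 in roots and from 0.63 to 1.84 in shoots, below those of CCOAMT. Closest to ALDH2C4 were AT5G39020 (r = 0.988), AT4G26910 (0.988), AT1G51890 (0.984), the cytochrome P450 gene CYP71B23 (0.984) and the calcium pump gene ACA.l (0.982). With organ means taken out, AT4G26910, AT5G39020 and ACA.l were again among the closest, joined by the glucosyltransferase gene UGT71B6 (0.949) and by AT4G16260 (0.937). No gene was among the closest 5 of both. These places rest on group means. Over the 25 arrays, with organ means kept, AT5G38900, AT1G26420 and AT3G18250 stayed closest to CCOAMT, and AT5G39020 and AT4G26910 to ALDH2C4. AT5G44990 then ranked 7 and AT2G16900 15 (r = 0.880) for CCOAMT. For ALDH2C4, AT1G51890 ranked 4, ACA.l 21 (0.948) and CYP71B23 65 (0.925).

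The rest of the pathway and the relatives of the pair were read through 31 further genes from 7 lists, which were drawn up with earlier results of these data known. The probe table used here gives no gene for 8730 of the 22746 probe sets and several genes for 503, and no gene was named from these. Of the lists, 0 of the 9 genes of the general phenylpropanoid steps and 2 of the 17 monolignol genes (HCT and CCR2) were named by a probe set of 1 gene. Most of the steps before CCOAMT were thus not analysed here. CCoAOMT1 (AT4G34050), on the monolignol list and of the same family as CCOAMT, was not measured either. Read besides were 3 genes of lignin polymerisation and its regulators, 12 of hydroxycinnamate esters, amides and coumarins, 5 of the flavonoid branch, 2 other members of the caffeoyl-CoA O-methyltransferase family and 7 other aldehyde dehydrogenases. They were tested with limma, with p-values adjusted over all 22746 probe sets.

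In MPK6ox roots 3 of the 31 genes rose and none fell, where 0.945% of all probe sets passed the test and 0.466% rose. All 3 belonged to the list of hydroxycinnamates and coumarins, and the median difference of its 12 genes was 0.17 against 0.02 over all probe sets. UGT72E2, whose enzyme attaches glucose to coniferyl and sinapyl alcohol, read 11.61 and 11.72 in normoxic WT roots and 12.79 and 12.81 in normoxic MPK6ox roots. In hypoxic roots it read 10.71 and 10.49 in WT and 11.94, 11.32 and 11.68 in MPK6ox. The arrays were apart in both treatments, and the difference was 1.09 ± 0.19 (log2, ± SE, 2.13-fold, adjusted p = 0.00632). Its relative UGT72E3 rose by 0.56 ± 0.11 (1.47-fold, adjusted p = 0.0123), and the call was lost under 4 of 31 alternatives, namely separate fits by organ and without normoxic WT root replicate 2, hypoxic WT root replicate 1 or normoxic MPK6ox root replicate 1 (adjusted p = 0.087 to 0.111). F6'H1 (AT3G13610), which hydroxylates feruloyl-CoA on the way to scopoletin, rose by 0.88 ± 0.20 (1.84-fold, adjusted p = 0.0486), a call that 23 of 31 alternatives lost, with adjusted p-values of up to 0.336.

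In MPK6ox shoots 1 of the 31 genes rose and 1 fell, where 1.64% of all probe sets passed, 0.967% rising and 0.677% falling. UGT72E2 read 7.20 and 7.64 in normoxic WT shoots and 8.89 and 9.47 in normoxic MPK6ox shoots. In hypoxic shoots it read 7.53 and 7.66 in WT and 8.71 and 9.11 in MPK6ox, again with no overlap. The difference was 1.54 ± 0.20 (log2, ± SE, 2.90-fold, adjusted p = 0.000184). PRX52, a peroxidase of lignin formation, fell by 0.75 ± 0.15 (1.68-fold, adjusted p = 0.0113), a call that 5 of 31 alternatives lost (adjusted p = 0.0556 to 0.116). These were separate fits by organ and the fits without normoxic WT replicate 2, hypoxic WT replicate 1, normoxic MPK6ox replicate 1 or hypoxic MPK6ox replicate 1 of the shoots. FACT, a caffeoyl transferase to fatty alcohols, differed by 1.07 ± 0.31 in shoots without passing (adjusted p = 0.151). The monolignol genes HCT and CCR2 passed in neither organ of MPK6ox.

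The measured relatives of the pair lay nearer to WT in MPK6ox than the pair did, or below it. The 2 other measured O-methyltransferase genes, AT1G24735 and AT3G62000, differed by -0.37 ± 0.18 and -0.27 ± 0.13 in MPK6ox roots and by -0.37 ± 0.19 and -0.02 ± 0.13 in shoots (log2, ± SE). None of these passed with limma, and 1, in roots, had an unadjusted p under 0.05. So did 1779 of the 22746 probe sets in MPK6ox roots and 1541 in MPK6ox shoots. The 7 other aldehyde dehydrogenases differed by -0.52 to 0.25 in roots and by -0.08 to 0.15 in shoots, where none passed with limma and none had an unadjusted p under 0.05. CCOAMT at 1.81 and 2.23 and ALDH2C4 at 0.59 and 0.93 lay outside these ranges. Since the choice of the pair may rest on this contrast, nothing is read from its distance to the relatives.

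**Figure D4:**
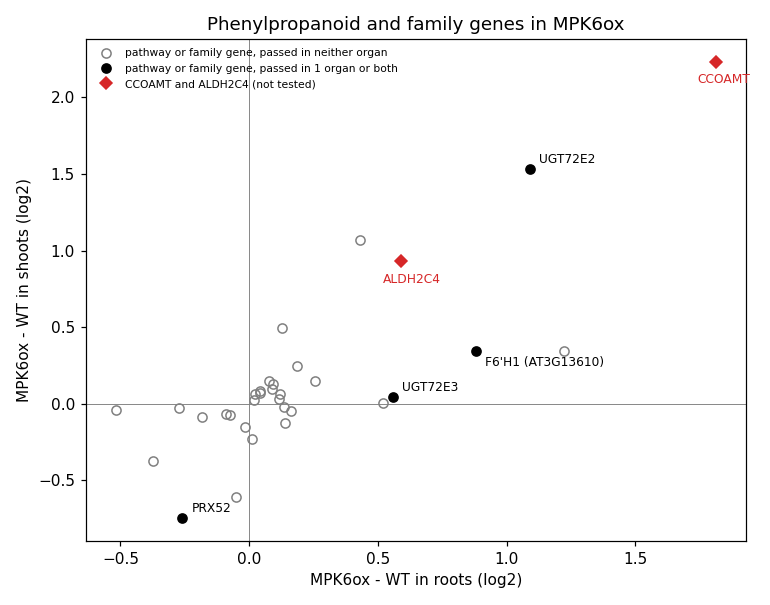
MPK6ox minus WT (log2) in roots (horizontal axis) and in shoots (vertical axis) for 31 phenylpropanoid and family genes (circles, filled where the test was passed in either organ) and for CCOAMT and ALDH2C4 (diamonds, not tested). CCOAMT lay farthest from the origin at 1.81 and 2.23, with UGT72E2 at 1.09 and 1.54 the next among the genes that passed. The choice of the pair may rest on this contrast, so nothing is read from its place.

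In mpk6 roots 2 of the 31 genes rose, where 0.585% of all probe sets passed and 0.277% rose. UGT72E3 rose by 0.54 ± 0.11 (log2, ± SE, adjusted p = 0.0314) and AT2G25150, a gene of the hydroxycinnamate list, by 1.54 ± 0.30 (adjusted p = 0.0279). The UGT72E3 values were 9.52 and 9.58 in normoxic mpk6 roots against 8.68 and 8.46 in WT. In hypoxic roots they overlapped, at 6.97 and 7.50 in mpk6 and 7.06 and 7.17 in WT. UGT72E3 also passed as higher in MPK6ox roots, against the same WT arrays. Both calls in mpk6 roots were lost with organs fitted separately and without normoxic WT root replicate 2, either hypoxic WT root array or normoxic mpk6 root replicate 1. The call of UGT72E3 was also lost without normoxic mpk6 root replicate 2, and that of AT2G25150 without hypoxic mpk6 root replicate 1. In mpk6 shoots none passed with limma, where 0.0264% of all probe sets passed. An unadjusted p under 0.05 was held by 2 of the 31 genes and by 654 of the 22746 probe sets.

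Hypoxia changed 11 of the 31 genes in roots, of which 8 fell and 3 rose, where 24.3% of all probe sets passed, 9.5% rising and 14.8% falling. The photosynthesis genes were higher and the root markers lower on the same arrays, and their part in these counts was not tested. UGT72E3 fell by 1.81 ± 0.09, UGT72E2 by 1.07 ± 0.16 and UGT72E1 by 1.01 ± 0.12 (log2, ± SE, adjusted p = 1.21e-10, 8.46e-05 and 8.74e-06). AT1G28680 fell by 0.87 ± 0.07 (adjusted p = 1.88e-07) and AT2G25150 by 0.72 ± 0.24 (adjusted p = 0.0396, lost under 11 of 31 alternatives). The 3 that rose were aldehyde dehydrogenases, ALDH11A3 by 1.55 ± 0.29, ALDH7B4 by 0.76 ± 0.13 and ALDH6B2 by 0.40 ± 0.11 (adjusted p = 0.000693, 0.000292 and 0.0144), against -0.24 ± 0.10 for ALDH2C4. In hypoxic shoots none of the 31 passed with limma, where 8.42% of all probe sets passed. An unadjusted p under 0.05 was held by 4 of the 31 and by 4268 of the 22746 probe sets. The count of genes that passed depended on the processing, since 1 to 3 genes passed under 4 alternatives and 0 to 1 without single arrays. Between normoxic roots and shoots 15 of the 31 were higher in roots and 8 lower, where 56.9% of all probe sets passed, 30.4% higher and 26.5% lower. The hypoxia effect itself differed between roots and shoots for 6 of the 31 (1 more positive and 5 more negative in roots), where 7.54% of all probe sets passed, 3.23% and 4.31% in these directions.

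The neighbours of the pair on the chromosomes were read as well, to set the pair beside the genes around it. Of the 10 protein-coding genes on each side of CCOAMT, 10 were measured, and their MPK6ox minus WT differences ran from -0.37 to 0.20 in roots and from -0.16 to 0.45 in shoots. None passed with limma in MPK6ox or mpk6, and 2 of these 40 comparisons had an unadjusted p under 0.05. The nearest measured neighbours of CCOAMT were AT1G67950 and HPR, and the genes between these and CCOAMT were not measured. TSM1 (AT1G67990), of the caffeoyl-CoA O-methyltransferase family, was not measured. Of all 22746 probe sets, 0.945% passed in MPK6ox roots, 1.64% in MPK6ox shoots, 0.585% in mpk6 roots and 0.0264% in mpk6 shoots. An unadjusted p under 0.05 was held by 1779 and 1541 in MPK6ox roots and shoots, and by 2223 and 654 in those of mpk6. Around ALDH2C4, 9 were measured. AT3G24510, the third gene on, rose in MPK6ox roots by 1.79 ± 0.19 (log2, ± SE, adjusted p = 5.54e-05) and differed by 0.65 ± 0.20 in shoots without passing (adjusted p = 0.182). It was named after its values were seen. The other 8 ran from -0.37 to 0.41 in MPK6ox roots and from -0.31 to 0.13 in MPK6ox shoots, with no call. Of the 36 comparisons around ALDH2C4, those of AT3G24510 included, 5 had an unadjusted p under 0.05.

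**Figure D5:**
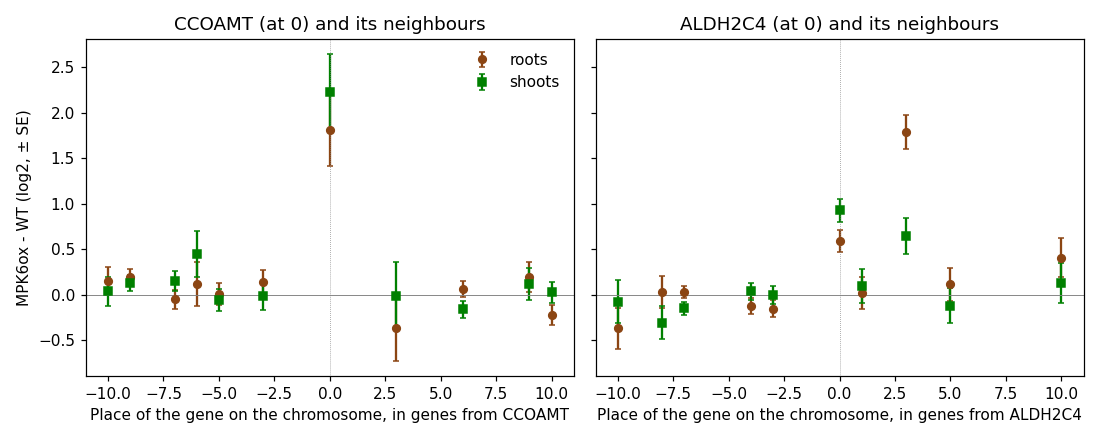
MPK6ox minus WT (log2, vertical axis, with the SE of the fit as bars) in roots (brown circles) and shoots (green squares) for CCOAMT (left) and ALDH2C4 (right) at 0 and for the measured protein-coding genes up to 10 places to either side (horizontal axis, in genes). CCOAMT at 1.81 and 2.23 lay above all its measured neighbours, of which AT1G67950 and HPR were the nearest on either side. The genes between these and CCOAMT were not measured. Beside ALDH2C4 at 0.59 and 0.93 the third gene on, AT3G24510, read 1.79 in roots.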

How the data were processed

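The deposited table held 1 log2 value per probe set and array for 25 ATH1 arrays, which the authors computed with RMA (submitters' processing notes, version not given). Per the labels, RNA was amplified and biotin-labelled in 2 cycles. No scaling was added, and 64 control probe sets were left out of 22810. Signal over background was not assessed, and the number of arrays per group, 2 or 3, limits the precision. Genes were named through the probe table of the array and the TAIR10.1 annotation, from which names, chromosomes and gene order were taken. 13436 of the 13513 probe sets with 1 gene were matched by gene ID.

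limma 3.58.1 in R 4.3.3 was fitted to 12 group means over all 22746 probe sets (13 residual and 3.41 prior degrees of freedom), with Benjamini-Hochberg adjustment within each comparison and calls at an adjusted p under 0.05. The fit was run beforehand on simulated data whose arrays varied independently. That run does not cover arrays that deviate together by replicate number, as these did. CCOAMT and ALDH2C4 got fitted differences and standard errors only. They and the gene lists were chosen with earlier results of these data known. The text names them, list members with the 5 largest calls each way, and the 5 genes most like each. A listed gene was read from its brightest probe set. Alternatives were quantile normalization, median centring, a filter on the dimmest 25% of probe sets, separate fits by organ, a replicate block, trended and robust moderation, and each array left out. Tables used Python 3.11.15.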

Additional observations from a re-analysis of the deposited data

Results flagged for a closer look

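The hypoxia effect differed between the organs for 5 genes of the pathway lists and 1 other aldehyde dehydrogenase, by a test of the difference itself with limma. The hypoxia effect in roots minus that in shoots was -0.81 for UGT72E1 (adjusted p = 0.00649), -0.91 for UGT72E2 (adjusted p = 0.02) and -1.78 for UGT72E3 (adjusted p = 2.83e-07), the glucosyltransferases of monolignols and their aldehydes (log2). It was -0.57 for F6'H2 (AT1G55290, adjusted p = 0.0181) and -0.74 for AT1G28680 (adjusted p = 0.000305), both from the list of hydroxycinnamates and coumarins. It was 1.49 for ALDH11A3 (adjusted p = 0.035), and 18 of 30 alternatives lost that call. Organ markers moved in hypoxia on the same root arrays, where the 4 photosynthesis genes rose by 1.74 to 2.08 and the root markers fell by 2.08 (EXPA7), 2.37 (EXPA18) and 0.32 (PYK10), and none of the 7 passed in shoots. In normoxia ALDH11A3 was lower in roots than in shoots, as the photosynthesis genes were, and the 3 UGT72E genes were higher there, as the root markers were. The part of organ content in these differences was not tested. Of all probe sets, 7.54% passed in this comparison. ALDH2C4 itself differed by 0.002 and CCOAMT by -0.65 between the organs, with standard errors of 0.15 and 0.47, and neither was tested.

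For CCOAMT every hypoxic WT shoot array lay above every normoxic one, by 0.70 in the mean, and every hypoxic MPK6ox shoot array lay below every normoxic one, by 0.23. Of all probe sets, 57.8% lay above in at least 1 of 6 line and organ settings and 57.1% lay below in at least 1. The shifts of CCOAMT differ by 0.93 ± 0.82 (log2, ± SE of the fit), and the difference was not tested.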

How the results depend on the processing

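Of 396 recomputed differences of CCOAMT and ALDH2C4, 395 moved by less than 1 SD of the arrays. The exception was ALDH2C4 in mpk6 roots, -0.12 in normoxic arrays only, an alternative chosen after seeing the data. Most of the 396 left out 1 array, and a difference cannot move where that array is in none of its groups. The bound is also wide for CCOAMT, with an SD of 0.65. Its mpk6 difference in roots stayed within that bound while it turned from -0.48 to 0.10. Without single arrays, CCOAMT ran from 1.44 to 2.19 in MPK6ox roots, 2.13 to 2.34 in MPK6ox shoots, -1.07 to 0.10 in mpk6 roots and -0.77 to 0.01 for hypoxia in roots. ALDH2C4 ran from 0.45 to 0.73 in MPK6ox roots and 0.86 to 1.00 in MPK6ox shoots.

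Of the 47 calls of single pathway and family genes, 36 held under every alternative and none reversed. Counts of these genes called without single arrays were 0 to 1 for hypoxia in shoots, 0 to 3 for mpk6 roots, 1 to 3 for MPK6ox roots, 1 to 2 for MPK6ox shoots and 0 to 1 for the mpk6 hypoxia difference in roots. The hypoxia count in shoots, 0, became 1 with arrays centred on their medians, 1 without the dimmest probe sets and 1 with organs fitted separately. Separate fits gave 0 for mpk6 roots and 1 for MPK6ox roots, with fewer arrays behind each error. Over all probe sets they gave 15 calls against 133 in mpk6 roots and 118 against 215 in MPK6ox roots. Without single arrays the counts over all probe sets were 20 to 485 in mpk6 roots, 2 to 32 in mpk6 shoots and 108 to 227 in MPK6ox roots.

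Replicate numbers are shared by the groups, and 55 of 66 pairs of groups deviated together (r over 0.1, median 0.30). The main fit did not model this shared deviation, so its standard errors and calls leave the pairing out. With replicate number as a block, which leaves the 1 array numbered 3 out, CCOAMT in MPK6ox roots was 1.88, hypoxia in shoots gave 3 of these genes and mpk6 roots gave 4. Over all probe sets the block gave 3076 calls against 1916 and 341 against 133 there.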
